A study of Mus musculus with 18 samples.

Results

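De novo lipogenesis is the route by which the liver builds fatty acids from carbohydrate carbon, and 10 of its genes were followed through the livers of 6 groups of mice. The genes were Acly, Acss2, Me1, Acaca, Acacb, Fasn, Elovl6, Scd1, Scd2 and Thrsp, chosen by symbol from the 19057 genes of the expression table, where all 10 were present. The animals were male ICR mice, labelled as 10 weeks old, and liver RNA was sequenced in 18 libraries, 3 per group. Con received regular diet and saline, and A10 was dosed with alginate oligosaccharide (AOS, short sugar chains made from alginate) at 10 mg/kg. HS received a high-fat diet and a single injection of streptozotocin (STZ), a toxin that kills the insulin-producing beta cells of the pancreas, and HS+A10 received diet, STZ and AOS at 10 mg/kg. A10-FMT and Con-FMT received diet, STZ and a transfer of gut microbiota, from AOS-dosed donors in A10-FMT and from control donors in Con-FMT, with the donors' small intestinal content pooled. HS+A10, HS, A10-FMT and Con-FMT therefore all share the diet and the STZ injection, which cannot be told apart from each other in these groups. Con and A10 are called non-STZ groups, and the labels of A10 name neither a diet nor STZ. The A10 and HS+A10 groups are known here from the sample labels alone, and nothing states that the 3 libraries of a group came from separate animals, so p-values measure the spread between libraries.

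In the liver, carbon leaves the mitochondria as citrate, which ATP citrate lyase (Acly) splits into acetyl-CoA and oxaloacetate. Acetyl-CoA synthetase (Acss2) makes the same acetyl-CoA from acetate, and malic enzyme (Me1) yields NADPH, the reducing power of the pathway. Acetyl-CoA carboxylases (Acaca, Acacb) then form malonyl-CoA, fatty acid synthase (Fasn) builds palmitate from it, Elovl6 elongates palmitate to stearate, and stearoyl-CoA desaturases (Scd1, Scd2) introduce the double bond that gives oleate and palmitoleate. Thrsp (Spot 14) is a small nuclear and cytosolic protein that promotes fatty acid synthesis. Insulin, acting through SREBP-1c, and glucose, acting through ChREBP, are known to raise transcription of the pathway, which makes its genes a classical readout of fed, insulin-exposed liver.

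Values are RPKM, read counts scaled to transcript length and to the number of mapped reads, so that levels can be compared between genes. Of the 10 genes, 9 had a mean of at least 1 RPKM and were tested. Scd2 was below that filter. Changes are differences of group means of log2(RPKM + 1), tested with limma over 10204 genes with Benjamini-Hochberg adjustment, with calls made where the adjusted p lay under 0.05. Relative depth, read from the steps between low RPKM values of 279 genes, lay between 0.951 and 1.08 across libraries, while absolute depth is unknown.

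Several libraries stood apart before any comparison. Con replicate 3 lay between Con replicates 1 and 2 for 98.6% of the 140 genes on which those differed by over 1 on the log2 scale, at a median weight of 0.53, and this held for 10 of 10 lipogenic genes. A10 replicate 3 lay between A10 replicates 1 and 2 for 96.3% of 135 genes, at a median weight of 0.35, and again for 10 of 10 lipogenic genes. In the other libraries that share was 6.52% to 74.4%. Both libraries were kept, and the counts of called lipogenic genes without them are given beside each comparison that uses Con or A10. HS replicate 1 was the lowest HS library for 9 of the 10 genes, so values without it are given where they change a call. They are also given for other genes in the comparisons with HS. Con-FMT replicate 3 carried pancreatic acinar transcripts, with a summed level of 18624 RPKM over 9 markers (2.66% of its RPKM) against 3.55 or less in the libraries of the other 5 groups. Hepatocyte markers summed to between 37294 and 64720 RPKM in all libraries. Fat cells also use the lipogenic pathway, and a list of 10 adipocyte genes summed to 31.4 to 80.2 RPKM per library. Its defining members Lep and Plin1 were at 0.31 RPKM or less in every library, and Adipoq was at 0.11 RPKM or less except for 2.44 RPKM in Con-FMT replicate 3, where Cfd was also at 11.7 RPKM. Fabp4, which other cells of the liver express too, was at 7.31 to 23.8 RPKM. In bulk liver, fewer cells of a type and less RNA per cell cannot be told apart.

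Stretches before the start sites of Acacb and Fasn are shown because these genes moved together with the others described below. They are taken from RefSeq promoter windows (build GRCm38.p6), which run from 250 bases before to 50 after a start site and were found for 8 of the 10 genes, in 9 windows. Scd1 and Scd2 had no window. Capitals mark CCAAT, the letters bound by NF-Y, or its complement ATTGG, and each stretch is 5′ to 3′ on the strand of the gene and holds no annotated exon. The Fasn stretch covers chr11:120824548-120824697 on the minus strand, and the Acacb stretch covers chr5:114165368-114165508 on the plus strand. In GENCODE the Acacb gene begins at chr5:114146535, so its stretch lies inside the annotated gene, before an internal start site. The Acaca window likewise lies inside its gene, which begins at chr11:84129672, as does 1 of the 2 windows of Me1.
Fasn: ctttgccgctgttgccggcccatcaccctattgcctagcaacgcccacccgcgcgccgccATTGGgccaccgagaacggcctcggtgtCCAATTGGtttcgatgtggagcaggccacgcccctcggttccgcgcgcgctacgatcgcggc
Acacb: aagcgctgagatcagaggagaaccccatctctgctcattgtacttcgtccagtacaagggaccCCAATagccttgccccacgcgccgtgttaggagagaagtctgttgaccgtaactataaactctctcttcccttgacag
Fasn held CCAAT on either strand 3 times, the last 2 of them overlapping, and Acacb held it 1 time together with a TATAAA box. CCAAT on either strand was held by 6 of the 9 windows, beside 37.4% of all 32851 promoter windows. These came from 6 of the 8 genes with a window (Acly, Acss2, Acacb, Fasn, Me1 and Thrsp). The Sp1 letters GGGCGG were found in 3 of the 9 windows, from 3 of the 8 genes, beside 35.7% of all windows. Neither the sterol regulatory element TCACNCCAC nor the E-box CACGTG was found in any of the 9 windows, beside 1.24% and 7.15% of all windows. A match is only a match of letters, and no match says only that these letters are not in this window.

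The strongest feature of the pathway was the desaturase. Scd1 was the most abundant of the 10 transcripts in each non-STZ library, with 676 RPKM, 815 RPKM and 740 RPKM in the Con libraries. The HS libraries held 17.4 RPKM, 38.4 RPKM and 73.4 RPKM of Scd1, all far below every Con library. The HS+A10 libraries held 15.9 RPKM, 14.5 RPKM and 46.1 RPKM, against 2033 RPKM, 895 RPKM and 1328 RPKM in A10. Microbiota recipients stayed in the same low range. Scd1 was at 7.09 RPKM, 10.1 RPKM and 69.2 RPKM in A10-FMT and at 21.5 RPKM, 12.7 RPKM and 21.5 RPKM in Con-FMT. No library of the 4 STZ-diet groups came within reach of the lowest non-STZ library, and those 4 groups overlapped each other. The ratio of group means was 17.3-fold lower in HS than in Con and 55.7-fold lower in HS+A10 than in A10.

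Scd2, the desaturase isoform better known from brain and early life, was near the detection limit in these livers. Its level was 0.45 to 1.26 RPKM over the 18 libraries, so Scd1 exceeded it in every one of them. Scd2 did not follow Scd1. In Con it was at 0.95 RPKM, 0.67 RPKM and 0.93 RPKM, and in HS at 1.26 RPKM, 1.18 RPKM and 1.19 RPKM, so the HS libraries were all above Con, as they were for 32.6% of all genes tested. The recipients were lower than HS without overlap, with 0.78 RPKM, 0.82 RPKM and 0.58 RPKM in A10-FMT and 0.45 RPKM, 0.52 RPKM and 0.74 RPKM in Con-FMT, where 32.8% and 27.9% of all genes tested were lower than in HS in the same way. In a fit without the expression filter, where Scd2 entered, its log2 change was 0.26 ± 0.09 (SE) in HS against Con (adjusted p = 0.0834), -0.36 ± 0.09 in A10-FMT against HS (adjusted p = 0.0196) and -0.50 ± 0.09 in Con-FMT against HS (adjusted p = 0.00286). The remaining paralogs, Scd3 at 0 RPKM and Scd4 at 0.05 RPKM or less in all libraries, were not measurable. Desaturases are close in sequence, and reads shared between them could be split by the counting, so the low Scd2 values are uncertain.

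**Figure D1:**
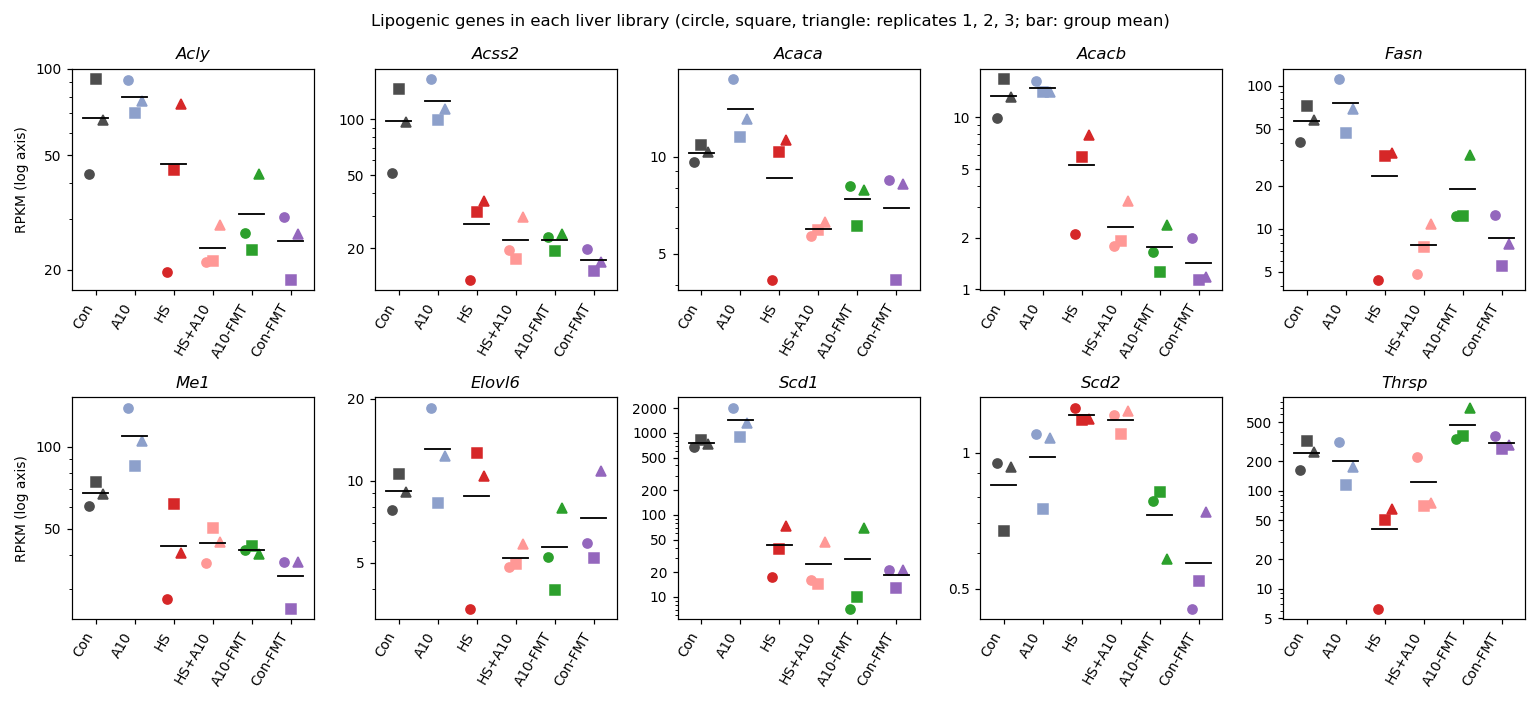
RPKM of the 10 lipogenic genes in the 18 liver libraries, on log axes that differ between panels, with each point a library and each bar the mean of 3. Scd1 is at 676 RPKM or above in the 6 non-STZ libraries and at 73.4 RPKM or below in the 12 STZ-diet libraries, whereas Thrsp is lowest in HS and highest in A10-FMT.

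Fatty acid synthase itself was lower in all STZ-diet groups, with a wide spread in HS. Fasn was at 40.5 RPKM, 72.1 RPKM and 57.1 RPKM in Con and at 112 RPKM, 46.9 RPKM and 68.6 RPKM in A10. In HS it was at 4.37 RPKM, 32.03 RPKM and 34.0 RPKM, so replicate 1 stood well below the other two, and all were under the lowest Con library. HS+A10 held 4.81 RPKM, 7.50 RPKM and 10.8 RPKM. A10-FMT held 12.3 RPKM, 12.2 RPKM and 32.6 RPKM of Fasn, and Con-FMT 12.4 RPKM, 5.47 RPKM and 7.84 RPKM. The 12 STZ-diet libraries were all below the 6 non-STZ libraries.

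The carboxylase isoforms behaved differently. Acaca encodes the cytosolic enzyme that feeds Fasn, and Acacb the form at the mitochondrial surface, whose malonyl-CoA restrains entry of fatty acids into mitochondria. Acacb was at 9.94 RPKM, 16.8 RPKM and 13.1 RPKM in Con and at 16.3 RPKM, 13.9 RPKM and 14.1 RPKM in A10. It was at 2.09 RPKM, 5.90 RPKM and 7.89 RPKM in HS and at 1.79 RPKM, 1.90 RPKM and 3.26 RPKM in HS+A10. The recipients had the lowest values, 1.65 RPKM, 1.26 RPKM and 2.37 RPKM in A10-FMT and 1.99 RPKM, 1.13 RPKM and 1.18 RPKM in Con-FMT. Every STZ-diet library was again below every non-STZ library. Acaca moved less, from 9.66 RPKM, 10.9 RPKM and 10.3 RPKM in Con to 4.14 RPKM, 10.4 RPKM and 11.3 RPKM in HS, where only replicate 1 was clearly under the Con range. It was at 17.5 RPKM, 11.6 RPKM and 13.1 RPKM in A10, and at 5.66 RPKM to 6.27 RPKM in HS+A10. The recipients ranged from 6.08 RPKM to 8.13 RPKM in the case of A10-FMT and from 4.13 RPKM to 8.44 RPKM in the case of Con-FMT.

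Among the genes that supply acetyl-CoA and NADPH, Acss2 showed the clearest separation. Acss2 was at 51.1 RPKM, 146 RPKM and 96.5 RPKM in Con and at 166 RPKM, 99.2 RPKM and 114 RPKM in A10. It was at 13.5 RPKM, 31.7 RPKM and 36.0 RPKM in HS, 19.6 RPKM, 17.5 RPKM and 29.5 RPKM in HS+A10, 23.1 RPKM, 19.4 RPKM and 23.9 RPKM in A10-FMT and 19.8 RPKM, 15.1 RPKM and 16.8 RPKM in Con-FMT, with no overlap between the 12 STZ-diet and the 6 non-STZ libraries. For Acly, the citrate-cleaving enzyme, Con and HS overlapped. It was at 43.1 RPKM, 92.5 RPKM and 66.6 RPKM in Con and at 19.6 RPKM, 44.5 RPKM and 75.7 RPKM in HS, while A10 ranged from 70.5 RPKM to 91.2 RPKM, HS+A10 from 21.2 RPKM to 28.6 RPKM, A10-FMT from 23.4 RPKM to 43.2 RPKM and Con-FMT from 18.4 RPKM to 30.5 RPKM. Me1, the NADPH source, was at 60.8 RPKM, 74.2 RPKM and 67.3 RPKM in Con and at 27.7 RPKM, 61.8 RPKM and 40.9 RPKM in HS. Its highest group was A10, with 139 RPKM, 84.9 RPKM and 105 RPKM. The other ranges of Me1 were 37.6 RPKM to 50.5 RPKM in HS+A10, 25.4 RPKM to 37.9 RPKM in Con-FMT and 40.4 RPKM to 43.2 RPKM in A10-FMT.

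Elovl6, which extends palmitate, had overlapping values in most groups. It was at 7.84 RPKM, 10.6 RPKM and 9.08 RPKM in Con, 18.6 RPKM, 8.32 RPKM and 12.4 RPKM in A10 and 3.38 RPKM, 12.7 RPKM and 10.4 RPKM in HS. The remaining ranges were 4.84 RPKM to 5.86 RPKM in HS+A10, 5.22 RPKM to 10.9 RPKM in Con-FMT and 3.98 RPKM to 7.93 RPKM in A10-FMT. In the order of group means, each neighbouring pair of groups overlapped for Elovl6 and for Acly.

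Thrsp departed from all the others. It was at 164 RPKM, 322 RPKM and 246 RPKM in Con, 311 RPKM, 116 RPKM and 173 RPKM in A10, and only 6.19 RPKM, 50.0 RPKM and 65.2 RPKM in HS. HS+A10 held 218 RPKM, 69.7 RPKM and 75.8 RPKM, all above the highest HS library. A10-FMT held 338 RPKM, 357 RPKM and 704 RPKM and Con-FMT 361 RPKM, 266 RPKM and 289 RPKM. The recipients were thus in or above the range of non-STZ liver, at the same time as their Scd1 stayed low. In the order of group means, A10-FMT, Con-FMT, Con, A10 and HS+A10 each overlapped the next, and HS alone was separated from its neighbour.

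The first comparison asked what high-fat diet with STZ did to the pathway. In HS against Con, 4 of the 9 tested genes were called lower and none higher, while 1.87% of all genes tested were called lower. The log2 change was -4.30 for Scd1 (SE 0.67, adjusted p = 0.0011 by limma), -3.03 for Thrsp (SE 0.66, adjusted p = 0.00814), -1.81 for Acss2 (SE 0.36, adjusted p = 0.00485) and -1.29 for Acacb (SE 0.31, adjusted p = 0.0121). Fasn had a log2 change of -1.61 and missed the threshold (adjusted p = 0.0715), as did Me1 with -0.69 (adjusted p = 0.0549). Me1 was called under quantile normalization (adjusted p = 0.026), at the same median (adjusted p = 0.0227), with a filter of 5 RPKM (adjusted p = 0.0479) and without HS replicate 2 (-0.98, adjusted p = 0.014), and Fasn without HS replicate 3 (-2.07, adjusted p = 0.0452). Fasn, Scd1, Acacb, Acss2 and Thrsp had every HS library below every Con library, which was 5 of 9 genes beside 4.17% of all genes, and the exact two-sided permutation test of each gave p = 0.1, the smallest that 3 libraries against 3 allow. Acly (-0.65, adjusted p = 0.233), Acaca (-0.34, adjusted p = 0.409) and Elovl6 (-0.20, adjusted p = 0.736) were not called. Without HS replicate 1 the same 4 genes were called, at -3.78 for Scd1, -2.02 for Thrsp, -1.38 for Acss2 and -0.84 for Acacb, while Fasn was at -0.72 (adjusted p = 0.275), Acly at -0.15, Acaca at 0.063 and Elovl6 at 0.31, none of them called. Without both in-between libraries 3 genes were called, Acacb having an adjusted p of 0.0539. Of all genes tested, 700 were called without both and 1580 without HS replicate 1, against 1809 with all libraries.

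Other material moved with HS. Erythroid markers (5 genes) summed to 2886 to 10041 RPKM in HS against 1256 to 1972 RPKM in Con, and stellate markers (6 genes) to 112 to 175 RPKM against 72.0 to 83.1 RPKM, with no marker of either list at 0 in those groups. The adipocyte list summed to 39.4 to 55.1 RPKM in HS against 31.4 to 33.6 RPKM in Con, with 2 and 4 of its 10 genes at 0. Their part in the lower lipogenic transcripts was not tested. The median of all genes was 0.14 higher in HS than in Con on the log2 scale, and the called genes kept their direction when libraries were scaled to the same median.

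The diet and STZ comparison within AOS-dosed mice was larger in extent. In HS+A10 against A10, 8 of 9 tested genes were called lower, all except Thrsp, while 7.28% of all genes were called lower. All 8 also had no overlap between the groups, beside 16.1% of all genes. The log2 change was -5.86 for Scd1 (SE 0.67, adjusted p = 6.3e-05), -3.11 for Fasn (SE 0.60, adjusted p = 0.00209), -2.46 for Acss2 (SE 0.36, adjusted p = 0.000358) and -2.27 for Acacb (SE 0.31, adjusted p = 0.000196). Smaller falls were called for Acly (-1.71), Me1 (-1.27), Elovl6 (-1.12) and Acaca (-1.10). Thrsp had a log2 change of -0.80 with a 95% interval from -2.22 to 0.61 (adjusted p = 0.431). Elovl6 was past the threshold only narrowly (adjusted p = 0.0441), and its call was lost without A10 replicate 1, A10 replicate 3 or any library of HS+A10, with adjusted p from 0.0726 to 0.166. The call of Acaca was lost without A10 replicate 1 (adjusted p = 0.051). Without both in-between libraries 7 genes were called, and Elovl6 had an adjusted p of 0.124. Over all genes tested, 1164 were then called, against 2131 with all libraries. Hepatocyte markers (8 genes) were lower in HS+A10 than in A10, at 51285 to 56310 RPKM against 57641 to 63408 RPKM. The adipocyte list was higher, at 67.7 to 80.2 RPKM against 34.8 to 40.4 RPKM, as were stellate markers, at 112 to 122 RPKM against 81.5 to 90.4 RPKM, and endothelial markers (5 genes), at 51.4 to 61.3 RPKM against 35.6 to 44.6 RPKM. No hepatocyte, stellate or endothelial marker was at 0, and 2 and 4 of the adipocyte genes were. Their part in the lower lipogenic transcripts was not tested.

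Whether AOS dosing altered the effect of diet and STZ was tested as an interaction. No lipogenic gene was called by limma, while 0.0098% of all genes were called, and 2 of the 9 had an unadjusted p under 0.05. These were Acacb (log2 difference -0.99, adjusted p = 0.359) and Thrsp (2.23, adjusted p = 0.338). The wider extent in AOS-dosed mice is therefore not shown to differ from that in undosed mice. Without HS replicate 1, Acacb alone was called in the interaction (-1.44, adjusted p = 0.0434), and without both in-between libraries 0 genes of the 9 were called. Over all genes, 118 were called without HS replicate 1 and 0 without both in-between libraries, against 1 with all libraries.

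**Figure D2:**
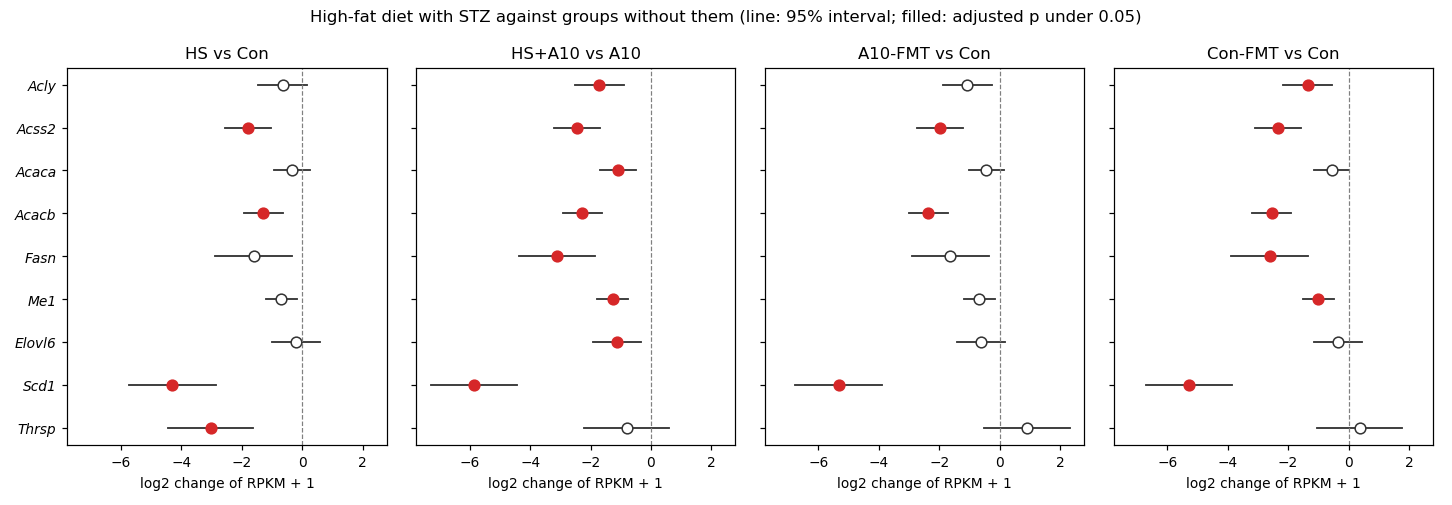
Log2 change of RPKM + 1 of the 9 tested genes (x axis, in log2 units) in 4 comparisons of STZ-diet with non-STZ liver, with 95% intervals from limma and filled points where the adjusted p was under 0.05. Scd1, Acss2 and Acacb are filled in all 4 panels, with Scd1 at -4.30, -5.86, -5.33 and -5.28, while Thrsp is filled only in HS against Con.

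Pooling the 4 STZ-diet groups against Con and A10 reused the libraries of HS against Con and of HS+A10 against A10, so it is not independent of them. Again 8 of the 9 tested genes were called lower, all but Thrsp, while 12.1% of all genes were called lower. Scd1, Fasn, Acacb and Acss2 had all 12 STZ-diet libraries below all 6 non-STZ libraries, which was 4 of 9 beside 1.05% of all genes. For each of them the exact two-sided permutation test gave p = 5.4e-05, the smallest that 12 libraries against 6 allow. That test treats all libraries as exchangeable, although the 6 include both in-between libraries and the 12 come from 4 groups. The log2 changes were -5.41 (SE 0.41) for Scd1, -2.33 (SE 0.37) for Fasn, -2.26 (SE 0.22) for Acss2 and -2.16 (SE 0.19) for Acacb, and the remaining called genes were Acly (-1.27), Me1 (-1.08), Acaca (-0.71) and Elovl6 (-0.67). Thrsp had a log2 change of -0.55 (95% interval -1.42 to 0.31, adjusted p = 0.323). Elovl6 (adjusted p = 0.0333) was no longer called when any of 6 single libraries was left out, namely Con replicates 2 and 3, A10 replicates 1 and 3, A10-FMT replicate 2 and Con-FMT replicate 1 (adjusted p from 0.051 to 0.1), nor without both in-between libraries (adjusted p = 0.107), where 7 genes were called. Of all genes tested, 2078 were called without both in-between libraries, against 3310 with all libraries.

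The transfer experiment asked whether microbiota from AOS-dosed donors changed the diabetic liver. In A10-FMT against HS, Thrsp was the only lipogenic gene called higher, while 2.09% of all genes were called higher, and Acacb the only gene called lower, while 21% of all genes were called lower. Thrsp rose by 3.93 on the log2 scale (SE 0.66, adjusted p = 0.00159), with all 3 recipient libraries above all HS libraries, as for 4.59% of all genes. Without HS replicate 1 the rise was 2.92 (adjusted p = 0.00178), and without HS replicate 3 it was 4.52. Acacb had a log2 change of -1.08 (SE 0.31, adjusted p = 0.021) with overlapping groups. Scd1 (-1.03, 95% interval -2.47 to 0.40), Fasn (-0.02, -1.29 to 1.25), Acss2 (-0.17, -0.94 to 0.59), Acly (-0.42, -1.23 to 0.39), Elovl6 (-0.43, -1.22 to 0.36), Acaca (-0.10, -0.70 to 0.49) and Me1 (0.02, -0.49 to 0.52) were not called. The Acacb call was lost without HS replicate 2, HS replicate 3 or A10-FMT replicate 2 (adjusted p = 0.0766, 0.0958 and 0.0798), and under scaling to the same median (adjusted p = 0.0572). Leaving out A10-FMT replicate 3 added Scd1 (-1.998, adjusted p = 0.0269) and leaving out HS replicate 1 added Elovl6 (-0.94, adjusted p = 0.041), both lower. The values near 0 also depended on HS replicate 1. Without it, Fasn was at -0.91 (adjusted p = 0.15), Acly at -0.92 (adjusted p = 0.0509) and Acss2 at -0.59 (adjusted p = 0.203). Acaca was at -0.50 (adjusted p = 0.107), Me1 at -0.26 and Scd1 at -1.55 (adjusted p = 0.127), and none of these 6 was called. Acacb was at -1.52 (adjusted p = 0.00114). Markers of other cells were lower in A10-FMT than in HS without overlap, at 1135 to 2049 RPKM against 2886 to 10041 RPKM for the erythroid list, 87.2 to 111 RPKM against 112 to 175 RPKM for the stellate list, 41.2 to 52.5 RPKM against 58.6 to 95.6 RPKM for the Kupffer cell list (6 genes) and 28.6 to 38.2 RPKM against 38.9 to 44.2 RPKM for the endothelial list. None of these markers was at 0 throughout a group, and their part in the results was not tested.

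Recipients of control microbiota gave the same picture against HS. In Con-FMT, Thrsp rose by 3.39 on the log2 scale (SE 0.66, adjusted p = 0.00243), while 4.61% of all genes were called higher, and Acacb changed by -1.26 (SE 0.31, adjusted p = 0.00854), while 19% of all genes were called lower. Neither gene overlapped between the groups, as was so for 7.11% of all genes in the higher and 27.9% in the lower direction. Without HS replicate 1 the rise of Thrsp was 2.39 (adjusted p = 0.00477), and without HS replicate 3 it was 3.99. Fasn (-1.01, adjusted p = 0.237) and Acly (-0.70, adjusted p = 0.201) were not called with all libraries. Without HS replicate 1 both were called lower, at -1.89 (adjusted p = 0.0103) and -1.20 (adjusted p = 0.0191), which made 4 called genes. Of all genes tested, 1905 were called in that fit, against 2413 with all libraries. Scd1 (-1.50), Acss2 (-0.94), Elovl6 (-0.65), Acaca (-0.62) and Me1 (-0.59) were not called in it, and Acacb was at -1.70. Stellate markers were at 86.4 to 103 RPKM in Con-FMT, below the HS range, and their part in the results was not tested. Both recipient groups were compared with the same HS libraries, so these results are not independent of each other.

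The direct comparison of the recipient groups sets microbiota from AOS-dosed donors against microbiota from control donors. Donor content was pooled, so the donors' AOS dosing cannot be told apart from the particular pool. Con-FMT replicate 3, with the pancreatic acinar transcripts described above, is part of this comparison. Between A10-FMT and Con-FMT, 0 of the 9 tested genes were called by limma and 0 had an unadjusted p under 0.05, while 18.8% of all genes were called in either direction. The log2 difference was 0.54 for Thrsp (95% interval -0.88 to 1.95), 0.98 for Fasn (-0.29 to 2.25), -0.05 for Scd1 (-1.48 to 1.38) and 0.18 for Acacb (-0.47 to 0.83). Differences of the size seen for Thrsp against HS lie outside its interval, but a change of severalfold in Fasn or Scd1 was not detectable with 3 libraries per group.

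Recipients were also compared with Con. In A10-FMT against Con, 3 genes were called lower, Scd1 (-5.33, adjusted p = 0.000201), Acacb (-2.36, adjusted p = 0.000244) and Acss2 (-1.98, adjusted p = 0.0024), while 7.62% of all genes were called lower. Without A10-FMT replicate 3 the change of Scd1 was -6.29, and without A10-FMT replicate 1 it was -4.74. In Con-FMT against Con, 6 genes were called lower, while 11.5% of all genes were called lower. They were Scd1 (-5.28), Fasn (-2.62), Acacb (-2.54), Acss2 (-2.32), Acly (-1.35) and Me1 (-0.997), with adjusted p from 4.1e-05 to 0.0166. Thrsp was called in neither group, with log2 changes of 0.90 (95% interval -0.51 to 2.31) for A10-FMT and 0.36 (-1.05 to 1.78) for Con-FMT. The call of Acly in Con-FMT was lost without Con replicate 2, Con replicate 3 or Con-FMT replicate 2 (adjusted p from 0.0503 to 0.0737), and without both in-between libraries 3 and 5 genes were called in A10-FMT and Con-FMT. All genes called then numbered 598 and 1622, against 1464 and 2637 with all libraries.

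**Figure D3:**
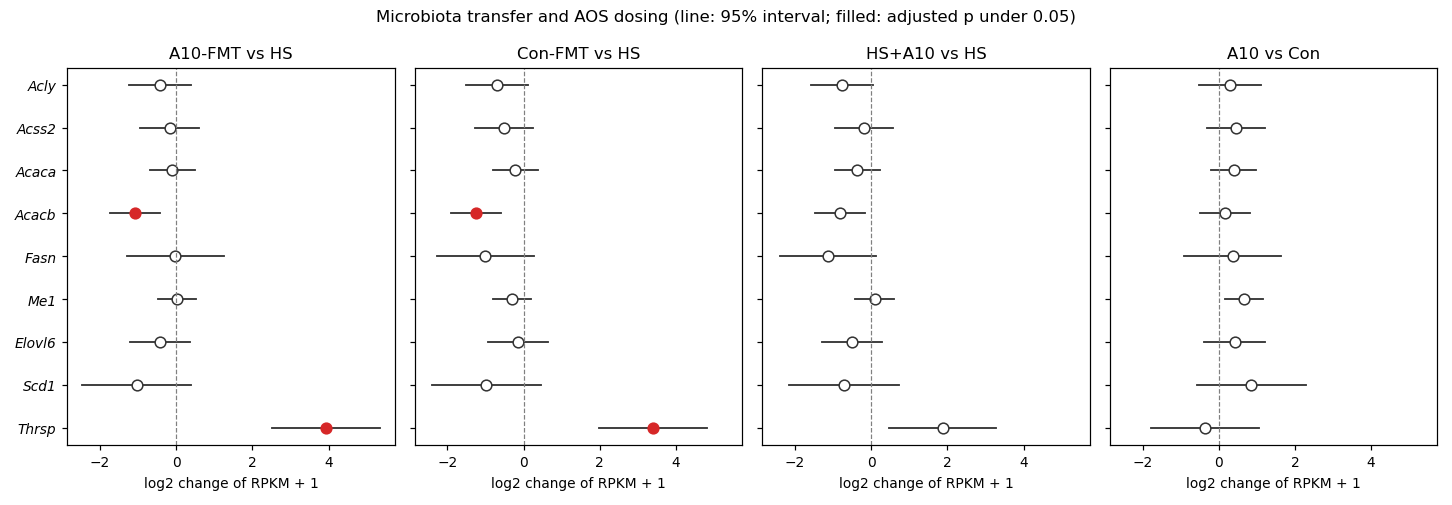
Log2 change of RPKM + 1 of the 9 tested genes (x axis, in log2 units) after microbiota transfer (left 2 panels) and AOS dosing (right 2 panels), with 95% intervals from limma and filled points where the adjusted p was under 0.05. Filled points are Thrsp (3.93 and 3.39) and Acacb (-1.08 and -1.26) in the recipients, and none in the dosing panels.

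AOS dosing was also examined on its own. In HS+A10 against HS, 0 of 9 genes were called by limma, while 7.32% of all genes were called in either direction, and 2 genes had an unadjusted p under 0.05. These were Thrsp (log2 change 1.87 ± 0.66 SE, adjusted p = 0.0961, higher in 3 of 3 libraries than in any HS library, as were 11.6% of all genes) and Acacb (-0.82 ± 0.31 SE, adjusted p = 0.112). This result depended on HS replicate 1. Without it, 5 genes were called lower, Fasn (-2.02, adjusted p = 0.0101), Acly (-1.27, adjusted p = 0.0205), Acacb (-1.27, adjusted p = 0.00404), Elovl6 (-1.01, adjusted p = 0.0454) and Acaca (-0.76, adjusted p = 0.0351), and Thrsp was at 0.87 (adjusted p = 0.267). Scd1 (-1.23), Acss2 (-0.62) and Me1 (-0.19) were not called. Of all genes tested, 1233 were called in either direction in that fit, against 747 with all libraries. Between these groups the adipocyte and endothelial lists were higher in HS+A10 without overlap, at 67.7 to 80.2 RPKM against 39.4 to 55.1 RPKM and at 51.4 to 61.3 RPKM against 38.9 to 44.2 RPKM, as was the hepatocyte list, at 51285 to 56310 RPKM against 41628 to 48246 RPKM. Their part in the result was not tested. HS replicate 1 was also the HS library with the lowest Thrsp, Scd1 and Acss2.

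Between the non-STZ groups, AOS dosing had no called effect on the lipogenic genes. In A10 against Con, 0 of 9 genes were called by limma, while 0.0686% of all genes were called in either direction, and 1 gene, Me1, had an unadjusted p under 0.05 (log2 change 0.67, SE 0.24, adjusted p = 0.253). Scd1 (log2 change 0.85, 95% interval -0.58 to 2.29, adjusted p = 0.608), Me1 and Acaca (0.40, adjusted p = 0.558) were higher in each A10 library than in any Con library, as were 19.6% of all genes. Without both in-between libraries 0 of the 9 genes were called, as were 0 of all genes tested. The A10 libraries were widely spread, replicate 1 being the highest and replicate 2 the lowest for 10 of the 10 genes.

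Across the 18 libraries 8 of the 10 genes rose and fell together. Pearson's r of log2(RPKM + 1) between pairs of Acly, Acss2, Me1, Acaca, Acacb, Fasn, Elovl6 and Scd1 lay between 0.718 and 0.959, whereas Thrsp had r between -0.0095 and 0.284 with each of them. These points share diet and STZ treatment within groups. Within the 12 STZ-diet libraries, r among the 8 genes was 0.266 to 0.914, and r of Thrsp with them was -0.422 to 0.225. Within the 6 non-STZ libraries, 2 of which lay between others, the corresponding ranges were 0.573 to 0.994 and 0.225 to 0.737. Scd1 and Fasn had r of 0.897 over 18 libraries and 0.681 within the 12 STZ-diet libraries, and Scd1 and Thrsp had 0.138 and -0.125. Such correlations describe these libraries and were not tested.

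**Figure D4:**
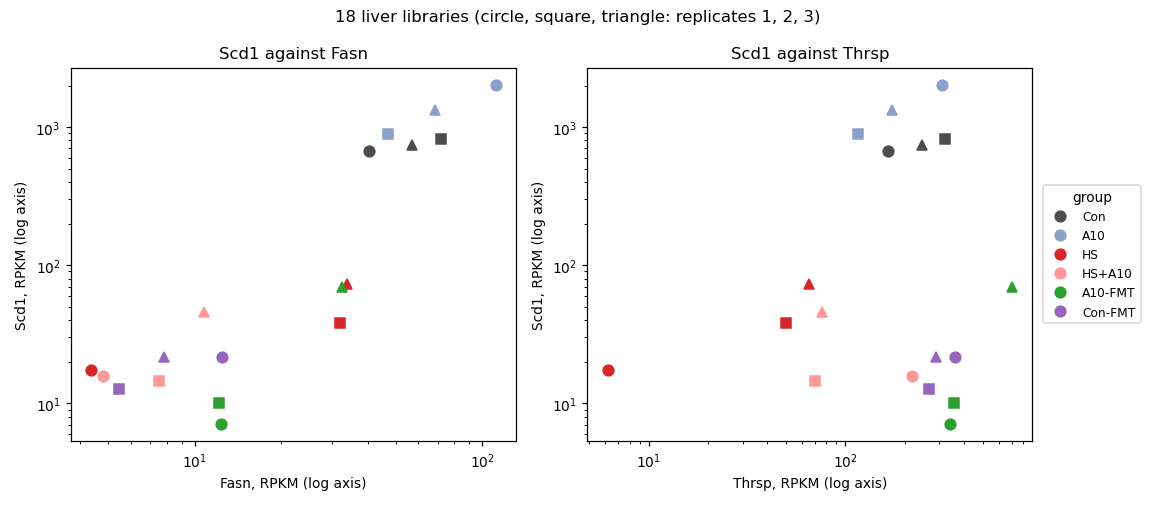
Scd1 against Fasn (left) and against Thrsp (right), in RPKM on log axes, in the 18 libraries coloured by group. Scd1 and Fasn fall along a common line (r of 0.897 for log2 values, n = 18), whereas the recipients combine Thrsp of 266 RPKM or above with Scd1 of 69.2 RPKM or below.

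The transcripts whose pattern was most like that of a member came from several pathways. For Fasn these were Tm7sf2, a sterol reductase of cholesterol synthesis (r of 0.970, n = 18), Zfand4 (0.963) and Insig1, which holds SREBP in the endoplasmic reticulum (0.959). The nearest to Scd1 were Cyp2r1, a vitamin D hydroxylase (0.942), Zfand4 (0.942) and Adra1b, an adrenergic receptor (0.937). Thrsp was nearest to the desmosomal gene Dsg1c (0.873), the uridine phosphorylase Upp2 (0.823) and the growth hormone receptor Ghr (0.794). The means of Upp2 were 159 RPKM in A10-FMT, 128 RPKM in HS+A10, 124 RPKM in Con-FMT, 77.0 RPKM in A10, 45.9 RPKM in Con and 19.7 RPKM in HS, so that it shared the highest and the lowest group with Thrsp but not the order between them.

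Some clock transcripts differed between groups in which Thrsp differed. The clock output gene Dbp, chosen after its values were seen, was at 0.36 to 3.41 RPKM in the libraries of Con, A10 and HS and at 47.3 to 98.8 RPKM in those of HS+A10, A10-FMT and Con-FMT. The clock activator Arntl, chosen in the same way, was at 8.84 to 13.4 RPKM in the first 3 groups and at 0.70 to 4.92 RPKM in the others. Nr1d1, a clock repressor chosen in the same way, was at 1.22 to 3.68 RPKM in Con, 10.0 to 30.7 RPKM in A10 and 17.2 to 27.0 RPKM in HS. It was at 24.7 to 58.5 RPKM in the other 3 groups. HS against Con and A10 against Con therefore carry a difference in Nr1d1 without overlap, and its part was not tested. Dbp was also at 1.17 to 2.22 RPKM in HS against 0.58 to 0.68 RPKM in Con. Per2, a clock repressor chosen in the same way, overlapped, at 1.33 to 6.92 RPKM in the first 3 groups and 2.71 to 11.6 RPKM in the others. Comparisons between the first 3 groups and the other 3 therefore carry the difference in Dbp and Arntl. This holds for every gene called in them, and its part was not tested. They are HS+A10 and both recipient groups against HS, HS+A10 against A10, and both recipient groups against Con. The interaction includes HS+A10, and the pooled comparison sets HS+A10, A10-FMT and Con-FMT, beside HS, against Con and A10. In the libraries of Con and A10, Thrsp was at 116 to 322 RPKM and Dbp at 0.36 to 3.41 RPKM. In those of HS, Thrsp was at 6.19 to 65.2 RPKM and Dbp at 1.17 to 2.22 RPKM. Whether the clock has a part in the Thrsp differences was not tested.

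The surrounding pathway was described with lists of 19 genes of carbon and NADPH supply, 19 of elongation and desaturation, 16 transcription regulators and 11 genes that control acetyl-CoA carboxylase. In HS against Con, 4 of the 19 supply genes were called higher and 3 lower (median log2 change -0.04, against 0.14 for all genes), beside 15.9% of all genes called higher and 1.87% called lower. Those that fell included Pgd of the NADPH-forming pentose phosphate pathway (log2 change -0.56, adjusted p = 0.0217). The supply genes that rose included the mitochondrial carrier Slc25a10 (0.73, adjusted p = 0.00459) and Pcx, pyruvate carboxylase (0.72, adjusted p = 0.0102), which also serves gluconeogenesis. Among 16 tested genes of elongation and desaturation, 3 were called higher and 0 lower (median -0.08), led by Hacd3 (0.44, adjusted p = 0.00475) and Elovl2, an elongase of polyunsaturated fatty acids (0.86, adjusted p = 0.00715). In HS+A10 against A10 the same list had 3 genes called higher and 5 lower (median -0.31, against 0.04 for all genes). In the pooled comparison it had 3 higher and 9 lower (median -0.35, against 0.04). The supply list had 1 higher and 7 lower in HS+A10 against A10 and 4 higher and 7 lower in the pooled comparison. The regulators had 2 higher and 5 lower and then 1 higher and 6 lower. Of all 10204 genes tested, 1388 were called higher and 743 lower in HS+A10 against A10. In the pooled comparison 2075 were called higher and 1235 lower. In HS against Con, 1 of 16 regulators was called lower and 1 higher, with a median of -0.07. They were Mlxipl, which encodes ChREBP (-0.77, adjusted p = 0.00334), and Rxra, a nuclear receptor partner (0.35, adjusted p = 0.00521). Srebf1, named here after its values were seen, was at 44.2 ± 14.2 RPKM (SD, n = 3) in Con and 39.8 ± 13.8 RPKM in HS, with a log2 change of -0.15 (adjusted p = 0.745). Of 10 tested genes that control the carboxylase, 1 was called higher and 0 lower (median 0.17), namely Trib3, which in fat tissue directs acetyl-CoA carboxylase to degradation (1.31, adjusted p = 0.00267).

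Against HS, the recipients of microbiota from AOS-dosed donors had Pklr, liver pyruvate kinase, higher (1.22, adjusted p = 0.0153) as the only called gene of 19 in supply (median -0.13, against -0.16 for all genes). Of all genes tested, 2.09% were called higher. Mlxipl (0.53, adjusted p = 0.0168) and the coactivator Ppargc1b (0.62, adjusted p = 0.00319) were called higher among 16 regulators, and Insig2 (-1.60, adjusted p = 0.00113) and Mbtps2 (-0.32, adjusted p = 0.0435) lower (median -0.15). Elongation and desaturation had 5 of 16 genes called lower and 0 higher (median -0.28), beside 21% of all genes called lower, led by Hsd17b12 (-0.40, adjusted p = 0.00284) and Elovl1 (-0.66, adjusted p = 0.0176). Of 10 carboxylase control genes, Prkaa1, a catalytic subunit of AMP kinase, was called lower (-0.29, adjusted p = 0.0461, median -0.14). In Con-FMT against HS no list gene was called higher, while 4.61% of all genes were. Called lower were 2 of 19 supply genes and 9 of 16 of elongation and desaturation. So were 3 of 16 regulators and 5 of 10 carboxylase control genes, beside 19% of all genes. In HS+A10 against HS, 301 of 10204 genes tested were called higher and 446 lower. Of the 19 supply genes, 0 were called (median -0.003, against -0.03 for all genes). The list genes called in this comparison were all higher. They were Acsl1 among 16 of elongation and desaturation (0.76, adjusted p = 0.042), Ppargc1b (0.67, adjusted p = 0.00622) and Usf2 (0.27, adjusted p = 0.0349) among 16 regulators, and Trib3 among 10 carboxylase control genes (1.53, adjusted p = 0.00382).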

How the data were processed

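Liver RNA of 18 libraries was sequenced after oligo(dT) selection. The authors deposited RPKM values per gene, per the study's methods from reads mapped with SOAPaligner, whereas the submitters' processing notes list Bowtie 0.12.2 and mm10 (GRCm38). Which of them made the values is not given in the sources used here. In this report, RPKM values were transformed to log2(RPKM + 1), genes with a mean under 1 RPKM were left out, and limma 3.58.1 (R 4.3.3) was fitted to all 18 libraries with 1 mean per group, a variance trend and Benjamini-Hochberg adjustment. The script was tested on simulated data. The study's own test, DEGseq, was not used because it needs counts and takes no account of spread between libraries. Alternatives covered the pseudocount, filter, scaling, samples in the fit, threshold and left-out libraries, with the omission of both in-between libraries added after seeing the data. The 10 genes and all lists were chosen with earlier results of these data known. Named genes were the 10 members, the called list genes with the smallest adjusted p (2 per direction, list and main comparison) and the 3 nearest transcripts of Scd1, Fasn and Thrsp, except for 1 list gene that is not reported here. Correlations between libraries with the same replicate number are given below. RPKM gives no absolute depth, so no counting intervals are given. In the deposited file, 26 symbols had been turned into dates, none of them a member. Promoter windows came from RefSeq, and exons from GENCODE on GRCm38.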

Additional observations from a re-analysis of the deposited data

How the results depend on the processing

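With the replicate number as a replicate block, the counts of called lipogenic genes were 4 in HS against Con, 8 in HS+A10 against A10 and 2 in each recipient group against HS, and no count in the other comparisons moved. Over all groups, correlations of same-numbered libraries were -0.13 to 0.26, above 0.1 in 12 of 45 pairs. Among HS, HS+A10 and A10-FMT they were 0.13 to 0.26 for replicates 1 and 3 and -0.093 to 0.061 for replicate 2. Pairs with different numbers were not compared, so whether same-numbered libraries share a deviation was not tested. Over the other settings, 1037 of 1089 member results kept direction and side of the threshold, and 697 of 756 did when a library was left out. Fitting only the compared groups gave 1 called gene in HS against Con and A10-FMT against HS, 0 in Con-FMT against HS and 7 in A10-FMT against Con. Of all genes, that fit called 702 in HS against Con, 846 in A10-FMT against HS and 777 in Con-FMT against HS. The main fit called 1809, 2358 and 2413. In A10-FMT against Con the count of all genes lay between 73 and 1857 over the settings, beside 1464 in the main fit. The study's threshold (adjusted p of at most 0.001 and a log2 change of at least 1) was set there for DEGseq and was applied here to limma. It gave 0 in HS against Con and in both recipient groups against HS, and 3 in HS+A10 against A10 and in Con-FMT against Con. Of 10204 genes, it called 39 in HS against Con, 33 in A10-FMT against HS and 96 in Con-FMT against HS. In HS+A10 against A10 it called 132, and in Con-FMT against Con 241. Quantile normalization and scaling to the same median each gave 1 in A10-FMT against HS, where Acacb was lost. They called 1114 and 1155 of all genes there, against 2358 in the main fit. The cause of these differences was not tested. In A10-FMT against HS, uncalled log2 changes reversed for Fasn (0.010 at a pseudocount of 0.1, 0.12 under quantile normalization, 0.16 at the same median), Acaca (0.054 and 0.067 under the last 2), Acss2 (0.014 at the same median) and Me1 (-0.10 at the same summed RPKM), and Scd1 between the recipient groups reversed to 0.029 under quantile normalization and 0.026 at the same median.

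Leaving out single libraries gave 4 to 5 called genes in HS against Con, 6 to 8 in HS+A10 against A10, 1 to 3 in A10-FMT against HS, 2 to 4 in Con-FMT against HS, 3 to 4 in A10-FMT against Con, 5 to 6 in Con-FMT against Con, 0 to 5 in HS+A10 against HS, 7 to 8 in the pooled comparison and 0 to 1 in the interaction. Over all genes tested, the same omissions gave 847 to 1599 called in HS against Con and 1325 to 1688 in HS+A10 against A10. They gave 1297 to 2586 in A10-FMT against HS, 1758 to 2256 in Con-FMT against HS and 814 to 1254 in A10-FMT against Con. For Con-FMT against Con the range was 1877 to 2503, and for HS+A10 against HS 152 to 1233. The pooled comparison gave 2626 to 3458 and the interaction 0 to 118. Results that changed sign were not called. Against HS, A10-FMT ranged from -0.91 to 0.44 for Fasn, -0.50 to 0.12 for Acaca, -0.92 to 0.023 for Acly, -0.59 to 0.084 for Acss2 and -0.26 to 0.30 for Me1. Con-FMT against HS ranged from -0.62 to 0.064 for Acaca and -0.65 to 0.18 for Elovl6, and HS+A10 against HS from -0.19 to 0.38 for Me1 and -0.62 to 0.061 for Acss2. HS against Con ranged from -0.56 to 0.063 for Acaca and -0.52 to 0.31 for Elovl6, A10 against Con from -0.010 to 0.34 for Acacb, and A10-FMT against Con-FMT from -1.01 to 0.54 for Scd1 and -0.17 to 0.27 for Acaca. The number of all genes called in HS against Con moved from 1809 to between 39 and 2738 over the settings. With 3 libraries per group, the uncalled changes of Elovl6 and Acaca in HS against Con were smaller than their 95% intervals allow to be told from 0.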
